A study of Homo sapiens with 9 samples.

Results

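The genes described here build, transfer, trim and branch asparagine-linked glycans (N-glycans). They were chosen by function as a list of 53 genes, of which 33 had a probe set among the 927 named genes of the array. Where a gene had several probe sets, the one with the highest mean over the 9 arrays stood for it. All 13 listed genes of precursor assembly were measured, with 2 of 6 for the supply of dolichol and dolichol-linked sugars, 4 of 9 for the oligosaccharyltransferase, 7 of 14 for trimming and quality control, and 7 of 8 for branching. The 3 genes of the mannose 6-phosphate tag (GNPTAB, GNPTG, NAGPA) were not analysed here. The other unmeasured genes, also not analysed here, were DOLK, DPM2, MPDU1 and SRD5A3 of dolichol supply, STT3A, STT3B, TUSC3, MAGT1 and OSTC of the transferase, MOGS, GANAB, PRKCSH, UGGT1, EDEM1, EDEM2 and EDEM3 of trimming, and MGAT4C of branching.

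N-glycans start as a lipid-linked precursor. Enzymes of the ALG series add sugars to dolichol phosphate, first on the cytosolic and then on the lumenal face of the endoplasmic reticulum, and the oligosaccharyltransferase moves the finished glycan onto asparagines of nascent proteins. Glucosidases and mannosidases then trim it while lectin chaperones follow folding, and in the Golgi the MGAT enzymes start the branches that later carry galactose, fucose and sialic acid. In intestinal epithelium most cell surface and secreted glycoproteins, CD44 among them, carry such glycans.

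The array measured transcripts of glycosylation and related genes in 2 human colon carcinoma lines, T84 and Caco-2. There were 9 arrays of one colour. The study asked which glycosylation genes might take part when interferon gamma raises a sialylated CD44v6 epitope (antibody GM35) in T84, with Caco-2 as a line without the epitope. T84 cells were given interferon gamma, a cytokine of activated T and natural killer cells, at 100 U/ml for 24 hours (3 arrays) or were left untreated at passage 68 and about 90% confluence in 6-well plates (3 arrays). Caco-2 cells were untreated, at passage 37 and 90% confluence in 6-well plates (3 arrays). For the treated T84 cells the passage, confluence and plates were not stated, and no label names a genetic modification. Each condition rests on a single cell line, and the labels do not say whether the replicates were separate cultures, so the p-values reflect the spread among these samples, part or all of which may be technical.

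Values are log2 signals, on which a difference of 1 is a doubling. They were normalized by the authors and come without detection calls, so whether a low signal lay above background is not known, and signals of different genes are not set against each other. A gene was called when limma's adjusted p, over all 1259 probe sets of the array, was below 0.05. Errors of group means are SDs over 3 arrays, errors of differences are standard errors of that fit, and intervals are at 95%. The probe sets of DPAGT1, ALG11, RPN2, UGGT2, MAN1B1 and MAN2A2 are of the kind shared among transcripts, so their signal may include related genes.

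Array medians lay between 6.7 and 6.8, and correlations across probe sets within groups between 0.987 and 0.999. After subtraction of the group means, 1 principal component held 70.9% of the remaining variance. It set treated T84 replicate 3, untreated T84 replicate 3 and Caco-2 replicate 1 to one side (scores -2.443, -5.487 and -9.441). In treated T84, replicate 1 lay nearly as far on the other side (2.385), and Caco-2 replicates 2 and 3 scored 5.055 and 4.386. The array with the largest absolute score in each group was taken, and these 3 are called the deviating arrays here. Calls that ended without 1 of these arrays are also given without all 3, a choice made after the data were seen. Each group then holds 1 array fewer. Since the arrays were chosen by their deviation, genes that follow the component have a smaller spread without them. A lower adjusted p in that setting is therefore no added support for a call. Interferon gamma response genes followed the labels, with 7 of 8 measured genes higher in treated than in untreated T84. Of 17 listed intestinal epithelial markers 5 were measured, and their mean signal per array was 10.72 to 10.75 in treated T84, 10.74 to 10.75 in untreated T84 and 7.59 to 7.89 in Caco-2. The 5 were LGALS4, MUC2, MUC13, FUT3 and LGALS3BP, and EPCAM, CDH1, VIL1 and the keratins were not analysed here. Within T84, LGALS4, a galectin, fell by 0.53 (limma adjusted p = 0.000241) and MUC13, a membrane mucin, rose by 0.40 (limma adjusted p = 0.0104) with treatment, and their part in the member changes was not tested. For leukocyte markers (11 of 20 measured) the means were 5.56 to 5.61, 5.5 to 5.59 and 5.46 to 5.54, and for fibroblast and endothelial markers (9 of 15) they were 4.97 to 5.03, 4.97 to 5.0 and 5.33 to 5.5, in the same order of groups.

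The comparison of treated with untreated T84 asked which steps of N-glycan synthesis changed with interferon gamma. In the fit on all arrays ALG14, DPM3 and DDOST were called lower, by 0.54, 0.44 and 0.33 log2 units. No measured member was called higher there, though MAN1A1 was when the 6 T84 arrays were fitted alone. The 3 genes called lower belong to precursor assembly, dolichol sugar supply and the oligosaccharyltransferase, with 1 gene each. None of the 7 trimming and 7 branching genes passed in the fit on all arrays, while MAN1B1 and MGAT3 were called lower without the 3 deviating arrays, when ALG14 and DDOST were not. Of 33 members, 9.09% were called, while 10.2% of all probe sets were called, 4.37% as higher and 5.8% as lower, so the members' share was near that of the whole array.

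Windows of 250 bases before the annotated start are shown for ALG14, DPM3 and DDOST. These were the members called within T84 in the fit on all arrays, and interferon gamma is known to act on promoters through STAT sites. The windows come from RefSeq on GRCh38.p14 and are written 5′ to 3′ on the minus strand. Capitals in DDOST mark a match to the STAT site GAS (TTCNNNGAA) and CCAAT boxes (CCAAT on either strand). The windows lie at chr1:95072952-95073201 for ALG14, chr1:155140532-155140781 for DPM3 (the first of 2 windows of that gene) and chr1:20661370-20661619 for DDOST.
ALG14: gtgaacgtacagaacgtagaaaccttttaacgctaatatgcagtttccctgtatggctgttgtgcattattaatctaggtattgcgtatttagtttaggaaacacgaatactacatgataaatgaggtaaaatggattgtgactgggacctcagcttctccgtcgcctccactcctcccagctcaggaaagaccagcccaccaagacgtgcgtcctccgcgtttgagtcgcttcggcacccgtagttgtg
DPM3: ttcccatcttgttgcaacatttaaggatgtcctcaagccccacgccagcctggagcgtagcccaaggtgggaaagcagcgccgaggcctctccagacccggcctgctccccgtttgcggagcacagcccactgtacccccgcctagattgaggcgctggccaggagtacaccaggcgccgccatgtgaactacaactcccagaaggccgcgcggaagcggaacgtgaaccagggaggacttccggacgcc
DDOST: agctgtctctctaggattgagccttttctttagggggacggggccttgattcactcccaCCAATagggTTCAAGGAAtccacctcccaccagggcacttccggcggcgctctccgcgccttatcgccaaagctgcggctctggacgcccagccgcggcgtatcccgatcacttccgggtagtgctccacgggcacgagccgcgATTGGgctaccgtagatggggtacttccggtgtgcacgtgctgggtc

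The ALG14 and DPM3 windows held no match to GAS, to the core of the interferon stimulated response element (GAAANNGAAA), to the CCAAT box or to the endoplasmic reticulum stress element (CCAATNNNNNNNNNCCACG), on either strand. The DDOST window held the GAS letters at position -182 from the start and CCAAT boxes at -191 and -47. A window was found for 28 of the 33 members, 48 windows in all, and none for ALG10, MAN1A2, MGAT3, MGAT4A and RPN1. GAS letters were in 4 of these windows (8.33%), those of DDOST, DPAGT1, ALG3 and MAN1C1, and in 6.57% of 35116 windows of all genes. The response element core was in 4.17% of the members' windows (ALG11 and MAN1C1) and in 3.02% of all windows. CCAAT boxes, a motif added after the data were seen, were in 33.3% and 32%. A match is a description of letters and does not show binding.

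ALG14 encodes the membrane subunit that holds ALG13 at the endoplasmic reticulum, where the pair adds the second N-acetylglucosamine of the precursor. Its signals were 7.68, 7.46 and 7.27 in treated T84, 7.98, 7.90 and 8.17 in untreated T84, and 8.20, 7.98 and 7.90 in Caco-2. All treated arrays were below all untreated ones, and untreated T84 and Caco-2 overlapped. The group means were 7.47 ± 0.20, 8.02 ± 0.14 and 8.03 ± 0.15 (SD, n = 3 each). The treated mean was 1.46-fold lower than the untreated one (log2 interval -0.82 to -0.26, limma adjusted p = 0.0237). In RNA from whole cultures, fewer cells that express a gene and less of its RNA per cell cannot be told apart, here or in the results that follow. The call ended when any of 4 arrays was left out (treated replicates 2 and 3, untreated replicates 1 and 3, limma adjusted p from 0.0711 to 0.0926) and without the 3 deviating arrays (-0.37, limma adjusted p = 0.0552).

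DPM3 encodes the small subunit that anchors and stabilises DPM1, the catalytic subunit of dolichol phosphate mannose synthase, which supplies mannose to the lumenal steps. DPM3 signals were 8.47, 8.43 and 8.46 in treated T84, 8.86, 8.78 and 9.05 in untreated T84, and 8.90, 8.65 and 8.65 in Caco-2. Treated arrays were again below every untreated array. The means were 8.46 ± 0.02, 8.89 ± 0.14 and 8.73 ± 0.14 (SD, n = 3 each), and DPM3 was 1.36-fold lower after treatment (interval 1.18 to 1.56, limma adjusted p = 0.0151). The call held without the 3 deviating arrays (limma adjusted p = 0.0141) and ended without treated replicate 2 (0.0654) or treated replicate 3 (0.0501). DPM1 itself did not pass, with a log2 fold change of -0.16 ± 0.13.

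DDOST encodes the OST48 subunit of the oligosaccharyltransferase. Its signals were 11.28, 11.40 and 11.34 in treated T84, 11.64, 11.59 and 11.78 in untreated T84, and 11.63, 11.71 and 11.61 in Caco-2. The treated arrays lay below all others, and untreated T84 and Caco-2 overlapped. DDOST was 1.26-fold lower in treated than untreated T84 (interval 1.14 to 1.39, limma adjusted p = 0.0096, n = 3 each). A second probe set of the gene, of the kind that can cross-hybridise, gave -0.36 ± 0.06 (limma adjusted p = 0.00852). The call held whichever single array was left out (adjusted p from 0.00944 to 0.0394) and ended without the 3 deviating arrays (-0.28, limma adjusted p = 0.0605).

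**Figure D1:**
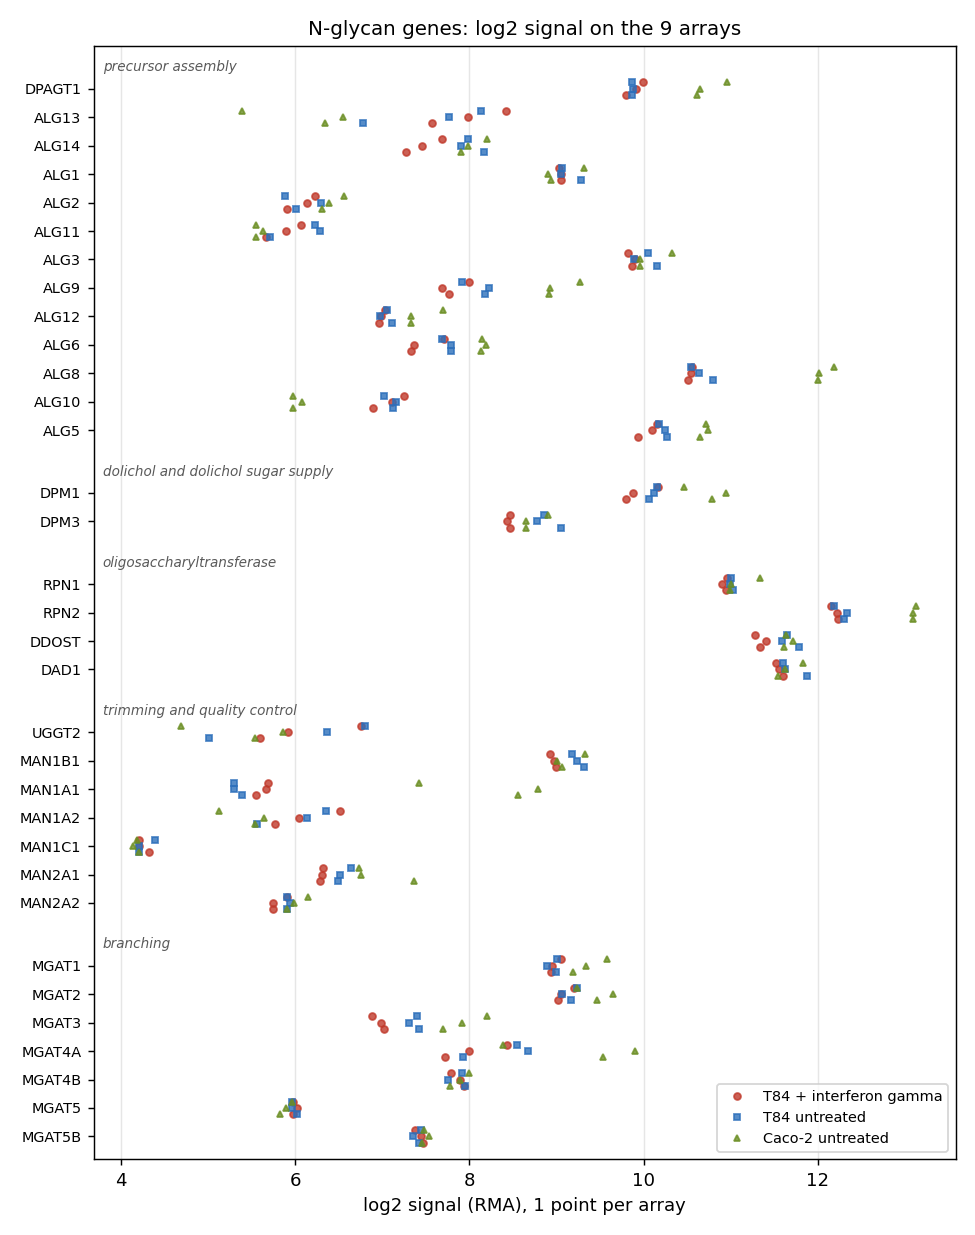
Log2 signal (horizontal axis) of the 33 members, ordered by step, with 1 point per array. Circles are treated T84, squares untreated T84 and triangles Caco-2, 3 arrays each. The treated points of ALG14, DPM3 and DDOST lie below all untreated T84 points, and the MAN1A1 points of both T84 groups (5.30 to 5.69) lie below those of Caco-2 (7.42 to 8.79).

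The other subunits of the transferase did not pass after treatment. RPN1, which holds substrates near the catalytic subunit, gave -0.06 ± 0.09, RPN2 -0.07 ± 0.05 and DAD1, a small subunit needed for the stability of the complex, -0.14 ± 0.10. The other 12 precursor genes also did not pass. DPAGT1, the target of tunicamycin that starts the precursor, gave 0.03 ± 0.09, and ALG13, the catalytic partner of ALG14, 0.43 ± 0.42. Among the mannosyltransferases, ALG9 gave -0.29 ± 0.13, ALG11 -0.20 ± 0.16, ALG3 -0.16 ± 0.11, ALG1 -0.09 ± 0.11, ALG12 -0.05 ± 0.10 and ALG2 0.02 ± 0.13. Among the glucosyl steps, ALG6 gave -0.29 ± 0.10, ALG5 -0.17 ± 0.06, ALG8 -0.12 ± 0.07 and ALG10 -0.02 ± 0.09. The precursor genes had a median of -0.12.

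Several members lay close to the threshold or apart by group without a call. MGAT3, which adds the bisecting N-acetylglucosamine, gave -0.41 ± 0.11 (limma adjusted p = 0.0605), and MAN1B1, the endoplasmic reticulum mannosidase that trims misfolded glycoproteins, gave -0.28 ± 0.08 (limma adjusted p = 0.0827). In both, the treated arrays lay below every untreated array, as they also did for ALG5, RPN1 and MAN2A1. MAN1A1, a Golgi mannosidase of the first trimming steps, was the member whose treated arrays (5.69, 5.66 and 5.55) all lay above the untreated ones (5.30, 5.30 and 5.39), at 0.30 ± 0.30 (limma adjusted p = 0.73). Its standard error comes from the spread of all 9 arrays and so includes the wide Caco-2 group. Groups did not overlap for 9 members, 8 lower and 1 higher, while 27.5% of all probe sets had groups apart, 17.9% as lower and 9.61% as higher.

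When the fit used the 6 T84 arrays alone, MAN1B1, MAN2A1 and MGAT3 joined the 3 genes called lower, and MAN1A1 was called higher, while 8.02% of all probe sets were then called lower and 5.16% higher. Array weights raised the number of members called lower to 7, and the share of all probe sets called lower to 11.4%. Without the 3 deviating arrays, DPM3, MAN1B1 and MGAT3 were called lower (4.85% of all probe sets), so that 1 of 3 was shared with the fit on all arrays.

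Branching enzymes other than MGAT3 showed small differences with narrow intervals, apart from MGAT4A. MGAT1, which opens the way to hybrid and complex glycans, gave 0.02 ± 0.09 (interval -0.20 to 0.24), and MGAT2, which starts the second antenna, -0.06 ± 0.10 (interval -0.30 to 0.18). MGAT5, which starts a branch of tri- and tetra-antennary glycans, gave 0.01 ± 0.05 (interval -0.10 to 0.12). MGAT5B, its relative known mainly from brain, gave 0.02 ± 0.05, and MGAT4B 0.01 ± 0.08. Over all arrays MGAT5 ranged from 5.83 to 6.02 and MGAT5B from 7.35 to 7.53. Without detection calls, such narrow intervals do not show whether these genes were expressed. MGAT4A, which like MGAT4B adds a branch on the first antenna, gave -0.34 ± 0.39 with an interval of -1.23 to 0.56, so a change of either direction could not be told from its spread. In trimming, MAN1A2 gave 0.09 ± 0.25, MAN1C1 -0.02 ± 0.06, MAN2A1 -0.24 ± 0.15, MAN2A2 -0.11 ± 0.07, and UGGT2, a relative of the folding sensor UGGT1, 0.03 ± 0.51.

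Across all 33 members the median difference was -0.09, beside -0.01 for all probe sets, and 23 members (69.7%) lay below 0, beside 56.5% of all probe sets. At an unadjusted p below 0.05, 7 members were lower and 0 higher in limma's fit, beside 149 and 96 of the 1259 probe sets. Centring each array on 42 ribosomal protein genes (called ribosomal centring here) moved the median of all probe sets from -0.01 to 0.13. With this centring ALG14 (-0.4, limma adjusted p = 0.0385) and DPM3 (-0.3, limma adjusted p = 0.0407) stayed called, DDOST did not (-0.19, limma adjusted p = 0.059), and MGAT5 was called higher. The whole array then split into 228 higher and 51 lower probe sets, in place of 55 and 73.

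**Figure D2:**
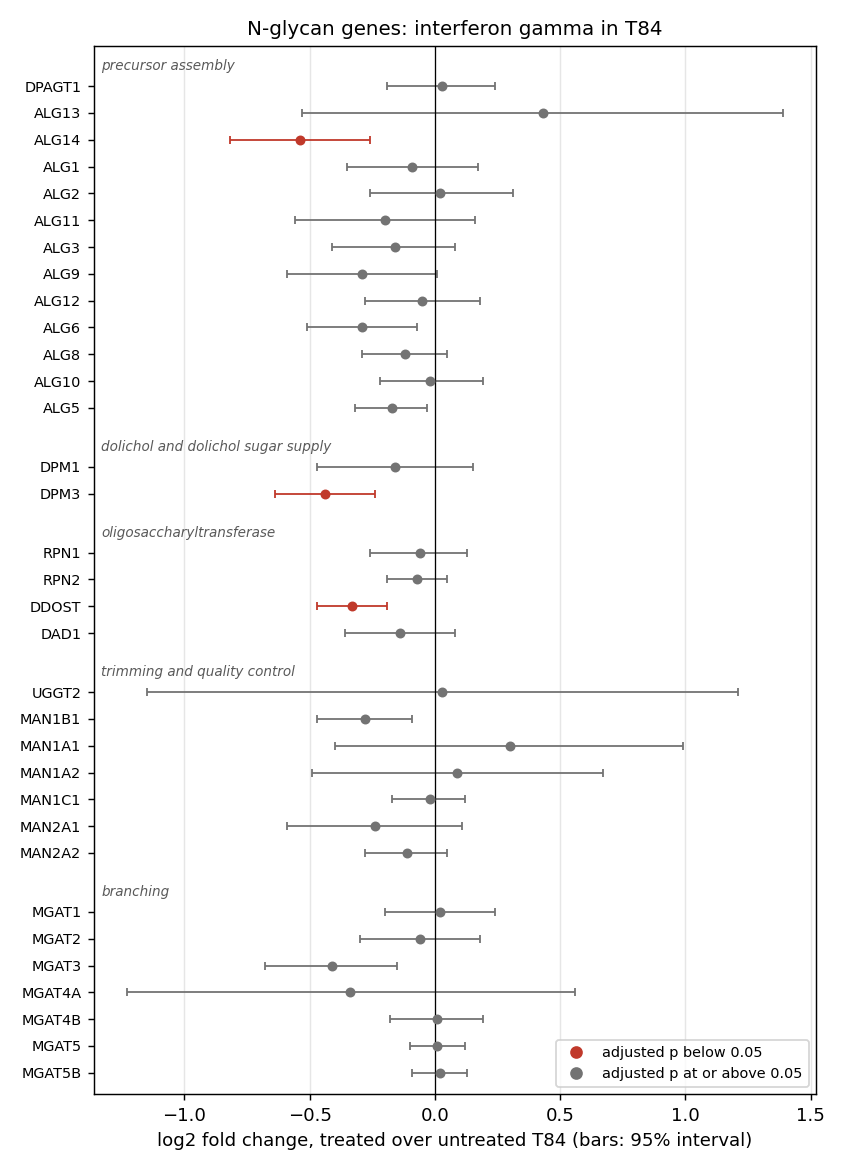
Log2 fold change of each member in treated over untreated T84 (horizontal axis, points, with bars for the 95% interval), by step of the pathway. Red points passed the adjusted threshold of 0.05, and these are ALG14, DPM3 and DDOST, all to the left of 0, with the other members in grey. The intervals of ALG13, UGGT2, MAN1A1, MAN1A2 and MGAT4A are wide.

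The comparisons with Caco-2 asked how the same pathway differed between the line that bears the epitope and the line without it. ALG8, ALG9, DPAGT1, ALG5, DPM1, RPN2, MAN1A1 and MGAT3 were among 12 members lower than Caco-2 in both T84 groups, with ALG6, ALG12, MGAT1 and MGAT2 as the others, and ALG10 and ALG13 were higher in both. Of all probe sets, 22.5% were lower and 15.7% higher in both. MAN1A1 showed the largest difference of the members, 6.18-fold lower in treated T84 (log2 interval -3.32 to -1.93) and 7.6-fold lower in untreated T84 (log2 interval -3.62 to -2.23). The treated and untreated comparisons share the Caco-2 arrays and are not independent of each other. In treated T84 2 members were higher and 18 lower (60.6% called), while 45.6% of all probe sets were called, 19.4% as higher and 26.2% as lower. In untreated T84 3 members were higher and 13 lower (48.5% called), while 43.7% of all probe sets were called, 19.5% as higher and 24.2% as lower.

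The line, its passage and its marker levels differ together in these comparisons and cannot be told apart. The 5 intestinal epithelial markers were all lower in Caco-2, and 5 of 9 fibroblast and endothelial markers (BGN, LUM, PDGFRA, PDGFRB, PECAM1) were higher in it. Their part in the differences of the members was not tested.

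In precursor assembly, DPAGT1 signals were 9.99, 9.91 and 9.80 in treated T84, 9.87, 9.88 and 9.87 in untreated T84, and 10.96, 10.65 and 10.61 in Caco-2. Every T84 array was below every Caco-2 array. The differences were -0.84 ± 0.09 for treated T84 (limma adjusted p = 9.12e-05) and -0.86 ± 0.09 for untreated T84 (limma adjusted p = 8.6e-05). ALG14, beside its fall with treatment, was lower than Caco-2 in treated T84 (-0.55 ± 0.12, limma adjusted p = 0.00535, or -0.13 and 0.293 under ribosomal centring) and gave -0.01 ± 0.12 in untreated T84 (interval -0.29 to 0.27).

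ALG13, the catalytic partner of ALG14, went the other way. Its signals were 8.42, 7.98 and 7.57 in treated T84, 8.13, 7.77 and 6.78 in untreated T84, and 5.39, 6.55 and 6.34 in Caco-2. The T84 arrays were all higher, with a wide spread in each group. The gene was 3.72-fold higher in treated T84 (interval 1.92 to 7.22, limma adjusted p = 0.00535) and 2.76-fold higher in untreated T84 (interval 1.42 to 5.36, limma adjusted p = 0.0204). The second call ended without untreated replicate 1 (limma adjusted p = 0.0754) or replicate 2 (0.0696). Both calls held without the 3 deviating arrays (limma adjusted p = 0.000523 and 0.00107), where the standard error was 0.18 in place of 0.42.

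Of the mannosyltransferases, ALG9, which adds lumenal mannoses, had signals of 7.99, 7.68 and 7.76 in treated T84, 7.91, 8.22 and 8.18 in untreated T84, and 9.27, 8.92 and 8.91 in Caco-2. All T84 arrays were lower, by 1.22 ± 0.13 in treated (limma adjusted p = 7.36e-05) and 0.93 ± 0.13 log2 units in untreated T84 (limma adjusted p = 0.000454). ALG12, which acts between the steps of ALG9, was lower by 0.46 ± 0.10 and 0.41 ± 0.10 (limma adjusted p = 0.00472 and 0.00881), calls that both ended under ribosomal centring (-0.03 and -0.13, limma adjusted p = 0.745 and 0.222). Its window held the one match of the members to the stress element, at position -134 (chr22:49918554-49918572, GRCh38.p14, minus strand), shown because chaperone and glycosylation genes are known to be driven through this element and 0.074% of all windows held it. The CCAAT box is part of the element.
ALG12: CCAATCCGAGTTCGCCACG

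The other mannosyltransferases gave differences of both signs. ALG2, which adds the inner branching mannoses, gave -0.34 ± 0.13 in treated T84 (limma adjusted p = 0.0594) and -0.36 ± 0.13 in untreated T84 (limma adjusted p = 0.0477). ALG11, which adds the last cytosolic mannoses, gave 0.30 ± 0.16 and 0.50 ± 0.16 (limma adjusted p = 0.166 and 0.0338). The ALG2 call ended without any 1 of 7 arrays (all but treated replicate 3 and untreated replicate 2, limma adjusted p from 0.0529 to 0.152) and without the 3 deviating arrays (-0.26, limma adjusted p = 0.181), and it was -0.07 (limma adjusted p = 0.595) under ribosomal centring. The ALG11 call ended without any 1 of 6 arrays (all but treated replicates 1 and 3 and untreated replicate 3, limma adjusted p from 0.0542 to 0.115), while without the 3 deviating arrays ALG11 was called higher in both T84 groups. ALG1 (-0.01 ± 0.11 and 0.08 ± 0.11) and ALG3 (-0.22 ± 0.11 and -0.05 ± 0.11) did not pass.

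The glucose steps held differences of both signs. ALG6 adds the first glucose of the precursor, ALG8 the second and ALG10 the last, which the transferase recognises. ALG6 signals were 7.71, 7.36 and 7.33 in treated T84, 7.69, 7.79 and 7.79 in untreated T84, and 8.14, 8.19 and 8.13 in Caco-2. ALG8 signals were 10.55, 10.54 and 10.51, then 10.54, 10.64 and 10.79, then 12.19, 12.01 and 12 in the same groups. ALG10 signals were 7.25, 7.11 and 6.89, then 7.02, 7.16 and 7.12, then 5.98, 6.08 and 5.98. For ALG6 and ALG8 every T84 array was lower than every Caco-2 array, and for ALG10 every T84 array was higher.

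ALG8 was 2.89-fold lower in treated T84 (interval 2.56 to 3.25, limma adjusted p = 5.55e-07) and 2.66-fold lower in untreated T84 (interval 2.36 to 2.99, limma adjusted p = 1.09e-06). ALG10 was 2.10-fold higher in treated T84 (limma adjusted p = 1.59e-05) and 2.13-fold higher in untreated T84 (limma adjusted p = 1.78e-05). ALG6 was lower by 0.69 ± 0.10 and 0.40 ± 0.10 (limma adjusted p = 0.000392 and 0.00916). Under ribosomal centring the ALG6 values were -0.26 and -0.11, and the call in untreated T84 ended (limma adjusted p = 0.27). The near-identical paralog ALG10B had its own probe set, which ranged from 4.70 to 6.57 and was not called in any comparison, with differences of 0.70 ± 0.37 and 0.53 ± 0.37, so the signals of the 2 copies are reported as uncertain.

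ALG5 makes the dolichol-linked glucose that these enzymes use. Its signals were 10.15, 10.10 and 9.93 in treated T84, 10.18, 10.25 and 10.27 in untreated T84, and 10.71, 10.74 and 10.65 in Caco-2. All T84 arrays were lower, by 0.64 ± 0.06 (limma adjusted p = 4.73e-05) and 0.47 ± 0.06 log2 units (limma adjusted p = 0.000382).

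In dolichol sugar supply, DPM1 signals were 10.17, 9.88 and 9.80 in treated T84, 10.15, 10.12 and 10.06 in untreated T84, and 10.46, 10.95 and 10.78 in Caco-2. The groups did not overlap, and DPM1 was lower by 0.78 ± 0.13 and 0.62 ± 0.13 log2 units (limma adjusted p = 0.00139 and 0.0052). Its partner DPM3 was lower in treated T84 (-0.28 ± 0.09, limma adjusted p = 0.0311), a call that ended without any 1 treated array or without Caco-2 replicate 1 (limma adjusted p from 0.0665 to 0.0899) and whose sign turned under ribosomal centring (0.15). That call held without the 3 deviating arrays (-0.20, limma adjusted p = 0.0252). In untreated T84 DPM3 gave 0.16 ± 0.09 (interval -0.04 to 0.36).

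The subunits of the oligosaccharyltransferase differed among themselves. RPN2 signals were 12.15, 12.22 and 12.23 in treated T84, 12.19, 12.33 and 12.30 in untreated T84, and 13.13, 13.09 and 13.09 in Caco-2. These groups were tight and well apart, and RPN2 was 1.87-fold lower in treated T84 (interval 1.72 to 2.02, limma adjusted p = 1.32e-06) and 1.78-fold lower in untreated T84 (limma adjusted p = 2.65e-06). DDOST was lower in treated T84 (-0.31 ± 0.06, limma adjusted p = 0.00302, turning to 0.12 under ribosomal centring) and gave 0.02 ± 0.06 in untreated T84 (interval -0.12 to 0.16). RPN1 (-0.17 ± 0.09 and -0.10 ± 0.09) and DAD1 (-0.11 ± 0.10 and 0.04 ± 0.10) did not pass in either group.

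**Figure D3:**
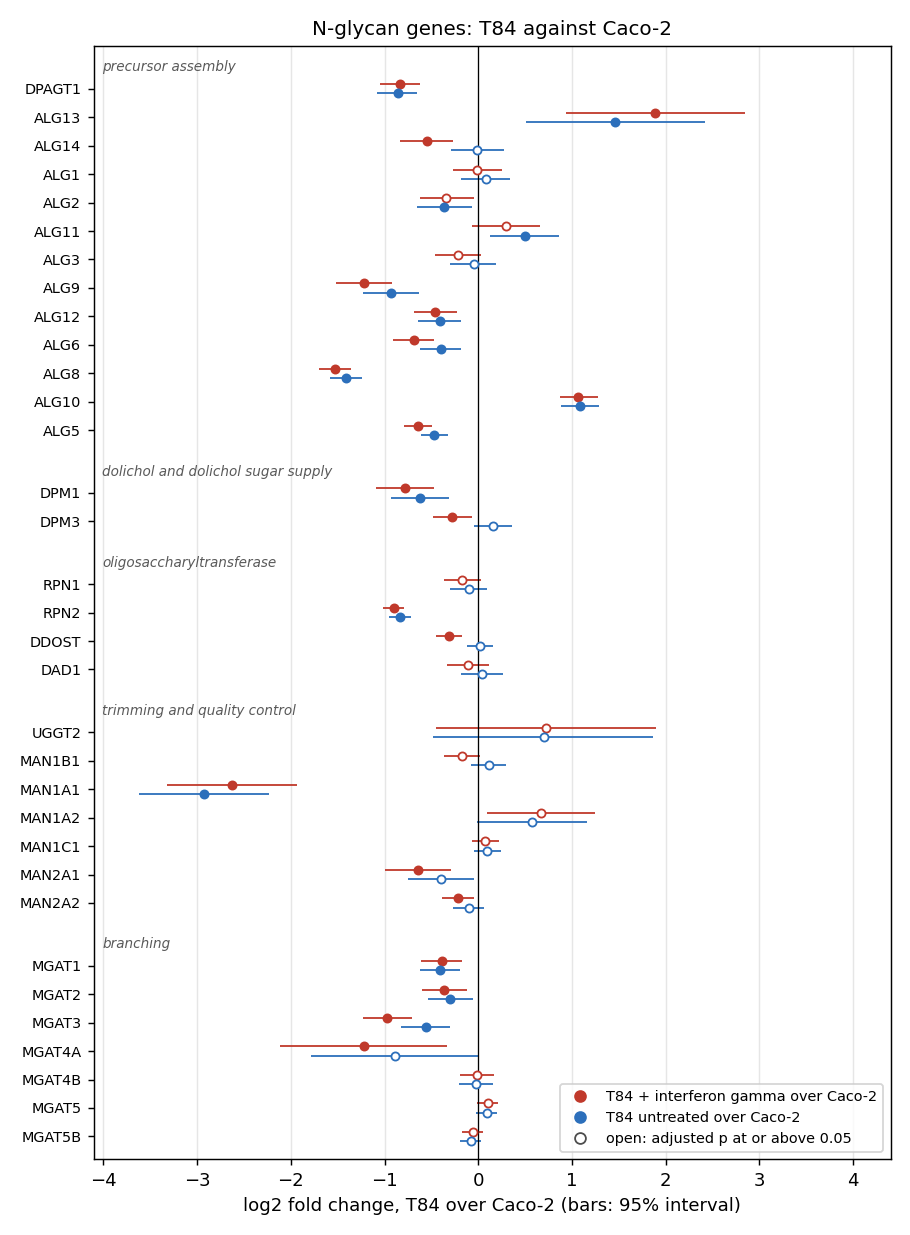
Log2 fold change of each member in T84 over Caco-2 (horizontal axis), for treated and for untreated T84, with bars for the 95% interval, by step of the pathway. Filled points passed the adjusted threshold of 0.05. Most filled points lie to the left of 0, ALG13 and ALG10 lie to the right in both groups, and MAN1A1 lies farthest to the left.

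In trimming, the Golgi mannosidases differed from one gene to the next. MAN1A1 signals were 5.69, 5.66 and 5.55 in treated T84, 5.30, 5.30 and 5.39 in untreated T84, and 7.42, 8.79 and 8.56 in Caco-2, so the lowest Caco-2 array lay well above every T84 array. Its differences were -2.63 ± 0.30 (limma adjusted p = 0.000112) and -2.93 ± 0.30 (limma adjusted p = 6.73e-05), and without the 3 deviating arrays they were -3.00 and -3.37. MAN1A2, an enzyme of the same step, gave 0.67 ± 0.25 and 0.57 ± 0.25, opposite in sign to MAN1A1 and not past the threshold (limma adjusted p = 0.0619 and 0.106). Without the 3 deviating arrays MAN1A2 was called higher in both T84 groups (0.68 and 0.65, limma adjusted p = 0.0155 and 0.0206). MAN1C1, the third Golgi enzyme of this step, ranged from 4.14 to 4.39 over all arrays and gave 0.07 ± 0.06 and 0.09 ± 0.06.

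MAN2A1 and MAN2A2 encode Golgi mannosidase II and its relative, which remove the last mannoses before complex branching. MAN2A1 signals were 6.32, 6.31 and 6.29 in treated T84, 6.64, 6.51 and 6.49 in untreated T84, and 6.73, 6.76 and 7.36 in Caco-2. The groups did not overlap, and the gene was lower in treated T84 (-0.64 ± 0.15, limma adjusted p = 0.00809, or -0.21 and 0.231 under ribosomal centring), with -0.40 ± 0.15 in untreated T84 (limma adjusted p = 0.0661). MAN2A2 gave -0.22 ± 0.07 (limma adjusted p = 0.0371), and -0.10 ± 0.07. Its call ended without any 1 of 7 arrays (all but treated replicate 1 and Caco-2 replicate 3, limma adjusted p from 0.0556 to 0.122) and without the 3 deviating arrays (-0.13, limma adjusted p = 0.221), and its sign turned under ribosomal centring (0.21). MAN1B1 (-0.17 ± 0.08 and 0.11 ± 0.08) and UGGT2 (0.72 ± 0.51 and 0.70 ± 0.51) did not pass.

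In branching, MGAT3 showed the clearest difference. Its signals were 6.88, 6.99 and 7.02 in treated T84, 7.40, 7.31 and 7.42 in untreated T84, and 8.20, 7.91 and 7.70 in Caco-2. The groups fell in this order without overlap, though the step within T84 did not pass its test. MGAT3 was 1.96-fold lower than Caco-2 in treated T84 (interval 1.64 to 2.35, limma adjusted p = 0.000126) and 1.47-fold lower in untreated T84 (limma adjusted p = 0.00383).

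MGAT1 was lower by 0.39 ± 0.09 and 0.41 ± 0.09 (limma adjusted p = 0.00868 and 0.00701) and MGAT2 by 0.36 ± 0.10 and 0.30 ± 0.10 (limma adjusted p = 0.0211 and 0.0467). Under ribosomal centring treated T84 turned to 0.04 for MGAT1 and 0.07 for MGAT2, and untreated T84 gave -0.12 and -0.02, with no call (limma adjusted p from 0.195 to 0.893). The MGAT2 call of treated T84 ended without treated replicate 2 or 3 or Caco-2 replicate 2 or 3, and that of untreated T84 without any 1 of 8 arrays, all but Caco-2 replicate 1 (limma adjusted p from 0.0545 to 0.144). Both MGAT2 calls held without the 3 deviating arrays (-0.43 and -0.41, limma adjusted p = 0.0145 and 0.019). MGAT4A gave -1.22 ± 0.39 (limma adjusted p = 0.0309) and -0.89 ± 0.39 (limma adjusted p = 0.104), with Caco-2 replicate 1 at 8.38 and the other Caco-2 arrays at 9.90 and 9.53. The MGAT4A call ended without treated replicate 2 or 3 or Caco-2 replicate 2 or 3 (limma adjusted p from 0.082 to 0.102), and under ribosomal centring (-0.80, limma adjusted p = 0.0824), while without the 3 deviating arrays MGAT4A was lower in both T84 groups (-1.51 and -1.11, limma adjusted p = 0.000893 and 0.00358). MGAT4B (-0.01 ± 0.08 and -0.02 ± 0.08), MGAT5 (0.10 ± 0.05 and 0.09 ± 0.05) and MGAT5B (-0.06 ± 0.05 and -0.08 ± 0.05) did not pass in either group.

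By step, treated T84 had 2 higher and 7 lower of 13 precursor genes, 0 and 2 of 2 dolichol sugar genes, 0 and 2 of 4 transferase subunits, 0 and 3 of 7 trimming genes, and 0 and 4 of 7 branching genes. Untreated T84 had 3 and 7, 0 and 1, 0 and 1, 0 and 1, and 0 and 3. Among all probe sets, 19.4% were called higher and 26.2% lower in treated T84, and 19.5% and 24.2% in untreated T84. The medians over all members were -0.31 in treated and -0.10 in untreated T84, beside 0.02 for all probe sets in both comparisons. Members whose groups did not overlap numbered 25 in treated T84 (20 lower, 5 higher), against 53.5% of all probe sets (28.8% lower, 24.8% higher), and 18 in untreated T84 (15 lower, 3 higher), against 49.6% (25.8% lower, 23.7% higher). Over both comparisons 12 of 33 members were lower and 2 higher in both T84 groups, beside 22.5% and 15.7% of all probe sets. In none of the 3 comparisons were 11 members called, beside 48.9% of all probe sets.

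The direction of the smaller differences depended on the scaling. Centring on the ribosomal protein genes moved the median of all probe sets from 0.02 to 0.45 in treated T84 and from 0.02 to 0.30 in untreated T84. The members then split into 13 higher and 9 lower, and into 15 higher and 8 lower, and the whole array into 903 higher and 182 lower, and 836 and 198. DPAGT1, ALG9, ALG8, ALG5, DPM1, RPN2, MAN1A1 and MGAT3 kept their lower call in both T84 groups on both scalings and without the 3 deviating arrays. Ribosomal centring brought the 8 genes in treated T84 to -0.41, -0.79, -1.1, -0.21, -0.35, -0.47, -2.2 and -0.54, in that order. In untreated T84 it brought them to -0.58, -0.64, -1.12, -0.18, -0.34, -0.55, -2.64 and -0.27. Some of these calls lay close to the threshold, with limma adjusted p = 0.0321 and 0.0409 for DPM1 in treated and untreated T84 and 0.0453 for MGAT3 in untreated T84. ALG10 and ALG13 kept their higher call in the same settings. The ribosomal genes themselves were 2 higher and 29 lower of 42 in treated T84, and 4 and 23 in untreated T84.

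The members differed widely in their spread within groups. The median pooled within-group SD was 0.128 for the members and 0.099 for all probe sets. UGGT2 (0.73), ALG13 (0.59), MGAT4A (0.55), MAN1A1 (0.43) and MAN1A2 (0.36) had a larger SD than 95.3 to 98.4% of the probe sets. UGGT2 signals were 6.75, 5.92 and 5.60 in treated T84, 6.80, 6.37 and 5.01 in untreated T84, and 4.69, 5.86 and 5.54 in Caco-2, with the lowest value of each group on one of the 3 deviating arrays. The same held for ALG13, DPM1, MAN1A2, MAN2A1 and MGAT4A, which makes 6 of 33 members (18.2%), beside 8.34% of all probe sets. DAD1, MAN1B1, MGAT3 and MGAT4B were instead highest of their group on those arrays (12.1% of members, 10.2% of all probe sets). What sets these arrays apart was not tested.

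**Figure D4:**
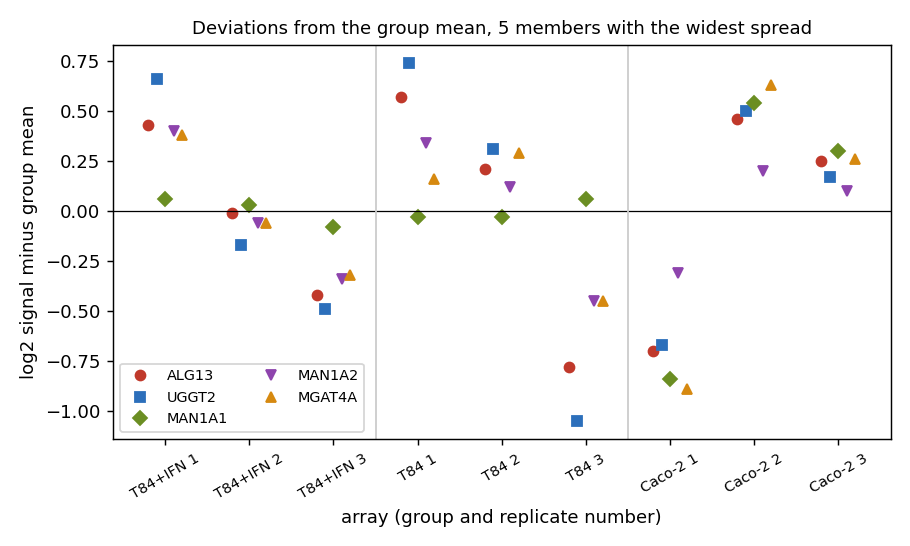
Log2 signal minus the group mean (vertical axis) on each of the 9 arrays (horizontal axis) for the 5 members with the widest spread, 1 marker per gene. On treated T84 replicate 3, untreated T84 replicate 3 and Caco-2 replicate 1, ALG13, UGGT2, MAN1A2 and MGAT4A lie below 0.

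Other genes of the pathway were counted from lists made by function. Among all probe sets, 4.37% were called higher and 5.8% lower after treatment. Against Caco-2 these shares were 19.4% and 26.2% in treated T84, and 19.5% and 24.2% in untreated T84. Of 11 measured genes that supply sugars or take other part in precursor synthesis, 0 were called higher and 1 lower after treatment. This was PMM1, a phosphomannomutase on the way to GDP-mannose, at -0.44 ± 0.11 (limma adjusted p = 0.048). Against Caco-2, 4 were higher (GFPT1, GMPPB, PMM2, UAP1) and 3 lower (GFPT2, GMPPA, PMM1) in treated T84, with 3 and 2 in untreated T84, and the medians of the list were 0.44 and 0.29. Of 5 measured endoplasmic reticulum lectins, lysosomal mannosidases and related genes, 1 was called lower after treatment, the lysosomal beta-mannosidase MANBA (-0.47 ± 0.07, limma adjusted p = 0.00325). Against Caco-2, 1 of these was higher (IGF2R) and 3 lower (CANX, MANBA, MAN2B1) in treated T84, with 1 and 2 in untreated T84, and the medians were -0.42 and -0.18. Of 13 genes that cap complex N-glycans, 1 was called lower, the sialyltransferase ST3GAL4 (-0.55 ± 0.11, limma adjusted p = 0.0139), and 0 higher. Against Caco-2, 0 of the capping genes were higher and 4 lower (B4GALT1, ST3GAL3, ST3GAL6, B4GALNT4) in treated T84, with 2 higher (ST3GAL4, ST6GAL1) and 3 lower in untreated T84, and the medians were -0.02 and -0.08. The genes named here for their calls against Caco-2 were chosen after their values were seen. None of 13 listed endoplasmic reticulum chaperone and stress genes was analysed here.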

How the data were processed

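Biotin-labelled RNA of 9 samples was hybridised to single-colour arrays. The deposited values are log2 signals per probe set, made by the authors with RMA, per the submitters' processing notes. Not given in the sources used here are the RMA version, the genome build of the probe sets and any later filter. No further normalization was applied. Of 1259 probe sets, 1069 carried a RefSeq identifier, and 1043 were named through a RefSeq table.

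limma 3.58.1 (R 4.3.3) fitted lmFit with the group as the factor to all 9 arrays, followed by eBayes (6 residual and 2.12 prior degrees of freedom), and p-values were adjusted by Benjamini-Hochberg over all 1259 probe sets, with a threshold of 0.05. The code was tested on simulated data. The 3 arrays per group limit the precision. No set test was run. The members and lists were chosen with earlier results of these data known. Every measured member is named. All 9 values are given for members called within T84, or called against Caco-2 with groups apart and a log2 fold change of at least 0.5. Genes of other lists were to be named where called within T84, at most 4 a list, and those named for calls against Caco-2, or as markers, fall outside this rule and were chosen after their values were seen. Alternatives changed the scaling, the arrays fitted (single arrays or 3 together left out, or the 2 groups compared alone), array weights, moderation, filters, thresholds and the probe set of a gene, or added a replicate block. Promoter windows came from RefSeq on GRCh38.p14. Figures were drawn with matplotlib 3.10.9 from tables made with pandas 2.3.3 in Python 3.11.15.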

Additional observations from a re-analysis of the deposited data

How the results depend on the processing

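Across 24 alternative settings the counts of members called stayed within 1.5 times of their value, apart from the following, whose causes were not tested. Within T84, the number higher was 1 when the 6 T84 arrays were fitted alone (5.16% of all probe sets) and 1 after centring on ribosomal protein genes (18.1% of all probe sets), and 0 to 1 with single arrays left out. The number lower was 6 with the T84 arrays alone (8.02% of all probe sets), 7 with array weights (11.4% of all probe sets), 1 at an adjusted p below 0.01, 5 at an adjusted p below 0.1, and 1 to 5 with single arrays left out. The count of 1 came without treated replicate 2 or 3, when DDOST was the gene called, and the count of 5 without Caco-2 replicate 1 or 3. Against Caco-2, the number higher in treated T84 was 13 after ribosomal centring (71.7% of all probe sets), 4 without the 3 deviating arrays (22% of all probe sets), and 2 to 4 with single arrays left out. The number lower was 9 after ribosomal centring (14.5% of all probe sets). In untreated T84 the number higher was 6 with array weights (25.4% of all probe sets), 15 after ribosomal centring (66.4% of all probe sets), 1 at an adjusted p below 0.01, and 1 to 5 with single arrays left out. The number lower was 8 after ribosomal centring (15.7% of all probe sets). Shares of all probe sets are not given for the other thresholds or with single arrays left out. Those counts cannot be set against the whole array.

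Single members reversed under ribosomal centring alone, 15 times, when the median of all probe sets moved up. In treated T84 against Caco-2 the values became 0.42 for ALG1, 0.15 for DPM3, 0.26 for RPN1, 0.12 for DDOST, 0.32 for DAD1, 0.26 for MAN1B1, 0.21 for MAN2A2, 0.04 for MGAT1, 0.07 for MGAT2, 0.41 for MGAT4B and 0.37 for MGAT5B. In untreated T84 they became 0.28 for ALG14, 0.18 for MAN2A2, 0.27 for MGAT4B and 0.20 for MGAT5B. Over all settings and comparisons, 2094 values of single members kept their direction and side of the threshold, 74 changed sign without passing, 64 gained a call and 87 lost one. Part of the 2094 was fixed in advance. Only DDOST among the members had another probe set, and a changed threshold cannot change a direction. The count therefore overstates how stable the members were.

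Deviations of same-numbered arrays correlated at 0.386, -0.024 and 0.561 between treated and untreated T84 (replicates 1, 2 and 3). Between T84 and Caco-2 they ranged from -0.643 to 0.473. The component that sets the 3 deviating arrays apart enters these values, so they cannot show whether the replicate numbers pair the samples. With the replicate number as a block, 0 members were higher and 3 lower within T84, 2 and 16 in treated T84 against Caco-2, and 3 and 11 in untreated T84, so the block moved no count by over 1.5 times. The share of all probe sets called with the block is not given here, so these counts cannot be set against the whole array. A minimum mean signal of 5 left 32 members, a minimum of 6.5 in a group left 26, and leaving out shared or cross-hybridising probe sets left 27. Without detection calls, signal over background could not be judged, and 10 members had a mean below the median of all probe sets.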
